A study of Mus musculus with 34 samples.

Results

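Paired-end ATAC-seq lists from male germ cells that lack Gcn5 were compared between a meiotic fraction (MS) and round spermatids (RS). In ATAC-seq the Tn5 transposase cuts and tags accessible DNA. The 4 libraries labelled GCN5_cKO.MS and GCN5_cKO.RS, of 34 in the series, supplied the transition, with 2 libraries a stage. The authors deposited 1 list of subnucleosome peaks and 1 list of nucleosome calls per group. The 4 lists of the transition (of 24) were therefore single lists without replicate error, and differences between them were not tested. The cKO mice are C57BL6 GCN5-/- animals with homozygous flox'd alleles and Stra8-CRE, whose driver gene is switched on in germ cells that enter meiosis. The same transition in C57BL6 GCN5+/+ mice (WT, 4 libraries) and in SV129 mice was set beside it. The 8 SV129 libraries are 2 replicates a stage with 2 technical repeats each, and SV129 differs from the other 2 backgrounds in strain too. The protocol describes pooled SV129 mice of 8 to 12 weeks, fractionation of testis cells by velocity sedimentation and fractions of at least 85% purity. The age and pooling of the C57BL6 mice are not given in the sources used here. No source used here separates the deletion from other differences between the cKO and WT colonies. Reactions held 100000 meiotic cells or 200000 round spermatids.

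GCN5, encoded by Kat2a, is a histone acetyltransferase of the SAGA and ATAC coactivator complexes, and acetylates histone H3. Round spermatids follow the meiotic divisions and transcribe many genes for the acrosome, the sperm tail and chromatin packaging. Later, histone hyperacetylation accompanies their replacement by transition proteins and then by protamines. A subnucleosome peak, made of short fragments, marks open DNA at promoters and other regulatory sites, whereas a nucleosome call marks a position called for a nucleosome. Calls within a list can overlap each other, so numbers of calls below are not numbers of separate nucleosomes. A site or gene is called closed below where it had an interval at MS only, opened where at RS only, and kept where at both stages.

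The 250 bases before the start site of 7 genes show the kinds of promoter the results turn on (RefSeq, GRCm38.p6, 5′ to 3′). Capitals mark CCAAT or its reverse complement ATTGG, the core letters recognised by the factor NF-Y. The palindromic cyclic AMP response element and the TATA box TATAAA were searched for too, and neither was in these 7 windows. Asf1b (chr8:83955444-83955693, plus strand), which encodes a histone chaperone, and Tomm40 (chr7:19715430-19715679, minus strand), which encodes a mitochondrial import channel, kept a peak from MS to RS in cKO. They hold 4 and 5 copies of CCAAT.
Asf1b: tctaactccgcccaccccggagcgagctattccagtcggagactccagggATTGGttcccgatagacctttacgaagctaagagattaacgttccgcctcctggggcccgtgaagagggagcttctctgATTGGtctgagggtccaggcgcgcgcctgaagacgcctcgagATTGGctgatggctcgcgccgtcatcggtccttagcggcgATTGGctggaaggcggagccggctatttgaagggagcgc
Tomm40: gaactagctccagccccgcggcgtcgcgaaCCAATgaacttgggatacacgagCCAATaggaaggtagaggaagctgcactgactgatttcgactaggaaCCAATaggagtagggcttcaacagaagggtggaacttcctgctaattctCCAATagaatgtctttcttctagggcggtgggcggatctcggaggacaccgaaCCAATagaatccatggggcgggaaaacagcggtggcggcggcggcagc
Syce1 (chr7:140787855-140788104, minus strand), which encodes a central element protein of the synaptonemal complex, closed in cKO and was kept in WT. Its window holds no copy of CCAAT. The NRF1 motif, taken up below, was not marked in any of these windows.
Syce1: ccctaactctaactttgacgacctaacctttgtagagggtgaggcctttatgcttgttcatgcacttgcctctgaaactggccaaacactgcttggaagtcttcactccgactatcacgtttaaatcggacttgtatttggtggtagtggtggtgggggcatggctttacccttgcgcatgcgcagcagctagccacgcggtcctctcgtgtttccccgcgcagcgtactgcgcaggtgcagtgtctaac
H1f7 (chr15:98257308-98257557, minus strand), which encodes a spermatid linker histone, and Klf17 (chr4:117765667-117765916, minus strand), which encodes a zinc finger factor, opened in both cKO and WT.
H1f7: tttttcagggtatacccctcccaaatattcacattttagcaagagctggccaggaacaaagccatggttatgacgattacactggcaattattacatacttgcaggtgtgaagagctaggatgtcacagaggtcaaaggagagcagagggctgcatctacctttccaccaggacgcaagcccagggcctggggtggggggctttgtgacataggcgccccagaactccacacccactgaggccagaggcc
Klf17: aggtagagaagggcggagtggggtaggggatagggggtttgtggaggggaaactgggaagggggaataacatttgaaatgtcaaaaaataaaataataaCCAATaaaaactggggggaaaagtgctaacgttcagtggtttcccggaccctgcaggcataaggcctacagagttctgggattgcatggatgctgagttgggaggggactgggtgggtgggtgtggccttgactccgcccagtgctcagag
Tnp1 (chr1:73015900-73016149, minus strand), which encodes transition protein 1, and Prm1 (chr16:10796824-10797073, minus strand), which encodes protamine 1, had no subnucleosome peak in cKO and had one at RS in WT and SV129.
Tnp1: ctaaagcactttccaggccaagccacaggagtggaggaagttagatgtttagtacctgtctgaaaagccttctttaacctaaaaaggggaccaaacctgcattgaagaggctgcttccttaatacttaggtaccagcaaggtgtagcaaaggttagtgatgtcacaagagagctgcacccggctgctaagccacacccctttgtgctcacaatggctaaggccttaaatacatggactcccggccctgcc
Prm1: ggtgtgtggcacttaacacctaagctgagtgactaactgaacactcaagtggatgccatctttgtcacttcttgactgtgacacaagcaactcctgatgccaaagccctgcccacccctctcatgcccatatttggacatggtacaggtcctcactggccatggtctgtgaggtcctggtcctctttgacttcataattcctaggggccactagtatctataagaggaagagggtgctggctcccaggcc

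On the 19 autosomes the cKO subnucleosome list shortened from 15587 peaks at MS to 4038 at RS, an RS to MS ratio of 0.259, and from 2.73 to 0.574 Mb of covered sequence. In WT the list lengthened from 34765 to 56048 peaks (ratio 1.61), and in SV129 it went from 31983 to 28935 (0.905). The cKO RS list was thus the shortest of the 6, and the median score of its peaks was 7.47, against 10.3 at MS in cKO and 22.2 and 17.0 at MS and RS in WT. Read depth and the peak threshold of each list are not given in the sources used here, so a shorter list cannot be told apart from fewer reads. Likewise, fewer cells with an open site and fewer fragments per cell cannot be told apart. The peak names of the WT and cKO lists carry the number of 1 library, and the way the 2 replicates entered a list is not stated. None of the 19 blood and immune genes listed had a subnucleosome peak near an end in any of the 6 lists. Of 23 Sertoli and Leydig cell genes 1 had one in cKO at MS (Dhh) and none at RS. In WT 4 had one at MS and 2 at RS, and in SV129 4 and 1. Nucleosome calls lay near 10 of the 23 at cKO MS and 7 at RS, against 12 and 4 in WT and 6 and 10 in SV129. Of all 20661 autosomal protein-coding genes, 7037 had a peak at cKO MS. The cKO lists were short, so few peaks at these genes do not measure purity. Spermatogonial genes with a peak numbered 4 of 23 at cKO MS and 2 at cKO RS. Of the genes that mark spermatids, 0 of 5 transition protein and protamine genes and 1 of 28 acrosome genes (Acr) had a peak at cKO RS, against 4 and 24 at WT RS. Of all genes 11.8% had a peak at cKO RS, 48.3% at WT RS and 41.8% at SV129 RS, so 0 of 5 is near the cKO share. Testis histone variant genes had one at cKO RS in 6 of 9 cases, among them the neighbours H2ac1 and H2bc1, which may share a peak. The targeted gene itself, Kat2a, had 127 bp of subnucleosome peak near its ends at cKO MS and none at RS. WT had 107 and 83 bp there, and SV129 had 120 and 0 bp. These positions do not show the deletion.

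Most open sites of the cKO meiotic fraction had no peak in cKO round spermatids. Of the 15587 MS peaks, 12526 closed, a share of 80.4% (Wilson 95% interval 79.7% to 81.0%), and 3061 were kept. Of the 4038 RS peaks, 949 had opened (23.5%, 22.2% to 24.8%). In WT 31.3% of MS peaks closed (30.8% to 31.8%) and 57.2% of RS peaks had opened, 32046 peaks in all. SV129 lay between, with 48.1% closed and 42.4% opened. Merged over both stages, cKO had 16529 sites, of which 75.8% closed, 18.5% were kept and 5.74% opened, and in WT the shares of 66378 sites were 16.4%, 35.3% and 48.3%. With 4038 RS peaks for 15587 MS peaks, list length alone made a high closed share in cKO, unless RS peaks each overlapped several MS peaks. These intervals cover counting error only and treat peaks as independent.

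The shares of cKO and WT lay close together when the lists were cut to equal length. When each of the 4 lists was reduced to its 4038 highest scored peaks, the number in the shortest, 59.8% of MS peaks closed in cKO (58.3% to 61.3%) and 59.0% in WT (57.5% to 60.5%). The opened shares were then 59.2% and 59.0%. The lowest score left was 15.6 at cKO MS and 3.02 at cKO RS, against 49.9 and 53.4 in WT. The cut thus held the whole cKO RS list but only the highest scored peaks of WT RS. A WT MS peak counted as closed where its RS peak fell below the cut. With equal numbers the opened share also nearly follows from the closed share. The part of list length in the difference between whole lists was therefore not tested. The SV129 lists carry no scores and could not be reduced in this way.

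**Figure D1:**
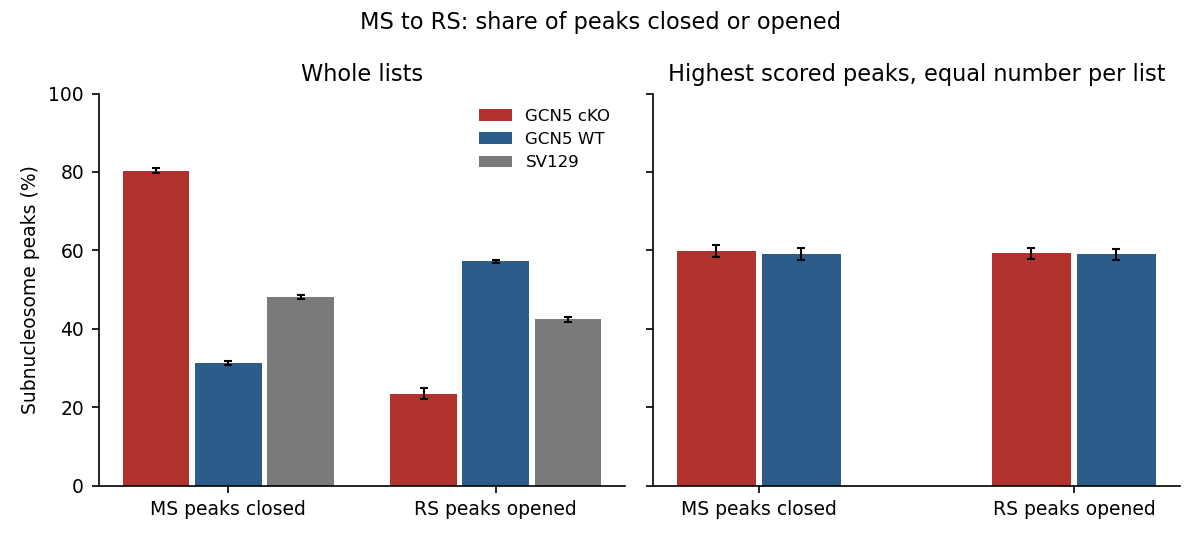
Share of autosomal subnucleosome peaks (%, vertical axis from 0) of the MS list that closed and of the RS list that opened, in whole lists on the left and with the 4038 highest scored peaks of each cKO and WT list on the right. Bars are single lists and error bars are Wilson 95% intervals; 80.4% of cKO and 31.3% of WT MS peaks closed in whole lists, and 59.8% and 59.0% at equal number.

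Most cKO MS peaks, whether closed or kept, overlapped a peak at both stages of WT, and closed ones did so less often. Of the 12526 closed cKO peaks, 78.0% overlapped a peak of both WT lists (77.2% to 78.7%), 17.9% a peak of WT MS only and 2.31% neither. The 3061 kept peaks overlapped both WT lists in 99.5% of cases. Seen from WT, 14590 of its MS peaks overlapped a cKO MS peak. Of these, 85.5% had a WT RS peak and 21.0% a cKO RS peak, but with the WT RS list reduced to its 4038 highest scored peaks the WT share was 18.6%. Of the 2109 of them that closed in WT, 2 had a cKO RS peak. So nearly every site that closed in WT and was detected at cKO MS had no peak at cKO RS.

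Sites that opened in cKO were few, and they too were WT sites. Of the 949 opened peaks, 941 overlapped a WT RS peak (99.2%) and 93.5% an SV129 RS peak, while 6 overlapped neither WT list. In WT, 60.7% of the 949 overlapped a peak at both stages and 38.5% (365 peaks) a peak at RS only. The reverse share was small. Of the 32046 peaks that opened in WT, 347 overlapped a cKO RS peak (1.08%, 0.975% to 1.20%), against 26.8% that overlapped an SV129 RS peak, in a list of 28935 against 4038.

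Strong and wide MS peaks were kept more often than weak and narrow ones. The authors' deposited score ranks peaks within a list. In 10 parts of the cKO MS list by score, of 1178 to 2002 peaks because of tied scores, the kept share rose from 6.89% in the lowest part (5.86% to 8.09%) to 53.4% in the highest (51.0% to 55.9%), with each part above the one before. In WT the lowest and highest parts were kept at 46.0% and 97.3%. The same cKO MS peaks overlapped the WT RS list at 71.6% in the lowest part and 97.5% in the highest. Kept cKO peaks had a median width of 227 bp and closed ones 136 bp, with median scores of 16.2 and 9.23. In WT kept peaks were 204 bp and closed ones 139 bp wide.

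**Figure D2:**
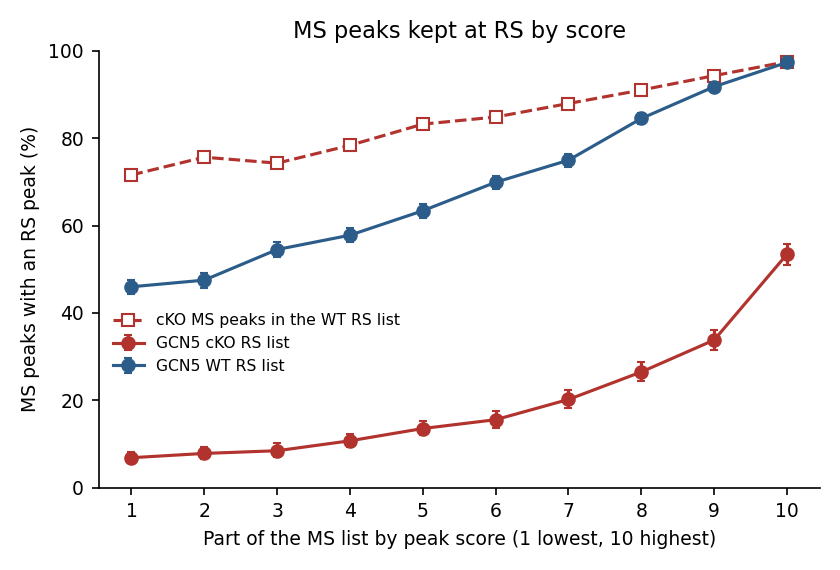
Share of MS subnucleosome peaks with an RS peak (%, vertical axis) in 10 parts of each MS list by score (horizontal axis), for cKO MS peaks against the cKO RS list and the WT RS list, and for WT MS peaks against the WT RS list. Error bars are Wilson 95% intervals; the cKO line climbs from 6.89% to 53.4% and stays below both other lines in every part.

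Peaks at gene ends were kept more often than others. A peak was assigned to a gene end when its centre lay within 500 bp of either annotated end of a protein-coding gene, otherwise to the gene body or to sequence outside genes. In cKO 71.1% of the 6631 MS peaks at gene ends closed (69.9% to 72.1%), against 87.3% in gene bodies and 87.2% outside genes. WT had the same order at 15.6%, 40.1% and 35.4%. As a result 62.7% of kept and 37.6% of closed cKO peaks lay at gene ends, against 15.8% of opened ones, of which 54.0% lay outside genes. Opened WT peaks were at gene ends in 4.88% of cases. Among peaks of the highest score part in cKO, 61.9% were kept at gene ends, 40.3% in gene bodies and 41.1% outside genes.

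The 8 highest scored MS peaks of the cKO list, with scores from 152.9 to 221.9, were all kept and were present in all 6 lists. They lay away from gene ends, such as chr6:103649054-103649299 in a gene body of Chl1 and chr12:97061419-97061805 between genes. These values describe the list and support no comparison. Among closed sites with high scores and a gene end nearby were chr1:190978913-190979417 (score 60.7) inside Vash2, 204 bp from its end, and chr15:52712239-52712514 (score 49.2), 68 bp from the end of Med30, a Mediator subunit. Both overlapped peaks at MS and RS in WT and SV129. The highest scored opened site, chr5:27744949-27745196 (score 22.0), lay inside Paxip1, 4993 bp from an end, and overlapped no WT MS peak and 248 bp of WT RS peak. The opened site at H1f7, chr15:98257366-98257509 (score 18.5), lay 130 bp from the gene end, overlapped no MS peak in WT or SV129, and was covered over its 144 bp by an RS peak in both.

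Nucleosome calls also fell in number in cKO, from 308818 to 205827 on the autosomes (ratio 0.667), close to WT, where they went from 318431 to 252705 (0.794); SV129 rose from 194106 to 228634 (1.18). Every call was 150 bp wide, and calls within a list overlapped. The 308818 cKO MS calls covered 26.9 Mb and the 205827 cKO RS calls 16.6 Mb. Overlap between stages was low. In cKO 90.0% of MS calls had no RS call and 87.7% of RS calls had no MS call, against 68.9% and 66.3% in WT. Much of the cKO RS list sat at 1 score: 66.8% of its calls shared the most common value, against 31.5% at cKO MS and 17.4% at WT RS. The scale of this deposited score is not stated. Without calls at the most common score of each list, the cKO shares were 90.9% and 80.0% and the WT shares 62.2% and 63.5%. At gene ends 70.8% of cKO MS calls had no RS call, against 92.4% in gene bodies and 94.4% outside genes, and the share of all calls at gene ends went from 15.1% at MS to 7.46% at RS. In WT it went from 23.5% to 17.9% and in SV129 from 31.4% to 19.0%.

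Open sites that cKO kept lost their nucleosome calls more often than kept sites in WT. Of the 3061 kept cKO peaks, 73.2% overlapped a nucleosome call at MS and 38.1% (36.4% to 39.8%) at RS. Kept WT peaks overlapped one in 68.7% and 64.2% of cases, and SV129 ones in 67.2% and 59.4%. Closed cKO peaks went from 53.0% to 17.4%, near closed WT peaks, at 53.2% and 14.7%. Opened sites differed too. In WT the share with a call rose from 12.8% to 30.4% as the sites opened, and in cKO it was 16.8% at MS (14.5% to 19.3%) and 15.8% at RS (13.6% to 18.3%), 2 intervals that overlap.

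The same held at start sites. The promoter table holds 20084 windows of 16456 protein-coding genes on 18 autosomes; promoters of chromosome 18 were not analysed here. Over the 2071 promoters whose 300 bp window (250 before and 50 after the start) had a subnucleosome peak at both cKO stages, nucleosome call centres within 100 bp of the start numbered 386 per 1000 promoters and 50 bp at cKO MS and 97.2 at cKO RS, a ratio of 0.252. Over these promoters WT had 696 and 734 (1.05) and SV129 778 and 647 (0.832). The promoters were chosen by cKO peaks, so a ratio near 1 in WT is a description of the same windows. Across the 18 autosomes the cKO ratio ranged from 0.138 to 0.410, below the ratio of all calls of that chromosome on 18 of 18. The WT ratio ranged from 0.829 to 1.31 and was below that of all calls on 2 of 18, and the SV129 ratio from 0.596 to 1.05 and below on 17 of 18. A fall at start sites relative to all calls was thus also present in SV129, where the ratio of the 2 ratios was 0.706, against 0.377 in cKO and 1.33 in WT. In cKO the ratio of all calls itself ran from 0.396 to 1.04 between chromosomes. The densest 50 bp bin lay 125 bp downstream of the start at both cKO stages. It held 704 centres per 1000 promoters at MS and 298 at RS. At WT MS it lay 125 bp downstream too, with 926, and at WT RS 75 bp upstream, with 918. In SV129 it lay 75 bp upstream at both stages, with 883 at MS and 785 at RS. Without calls at the most common score the start site ratio was 0.221 in cKO, 1.055 in WT and 0.832 in SV129, but the ratio of all calls in cKO dropped from 0.667 to 0.323. Relative to all calls the start site ratio was then 0.685 in cKO, 0.815 in SV129 and 1.18 in WT, so the distance between cKO and SV129 on this scale rested largely on calls at that score.

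**Figure D3:**
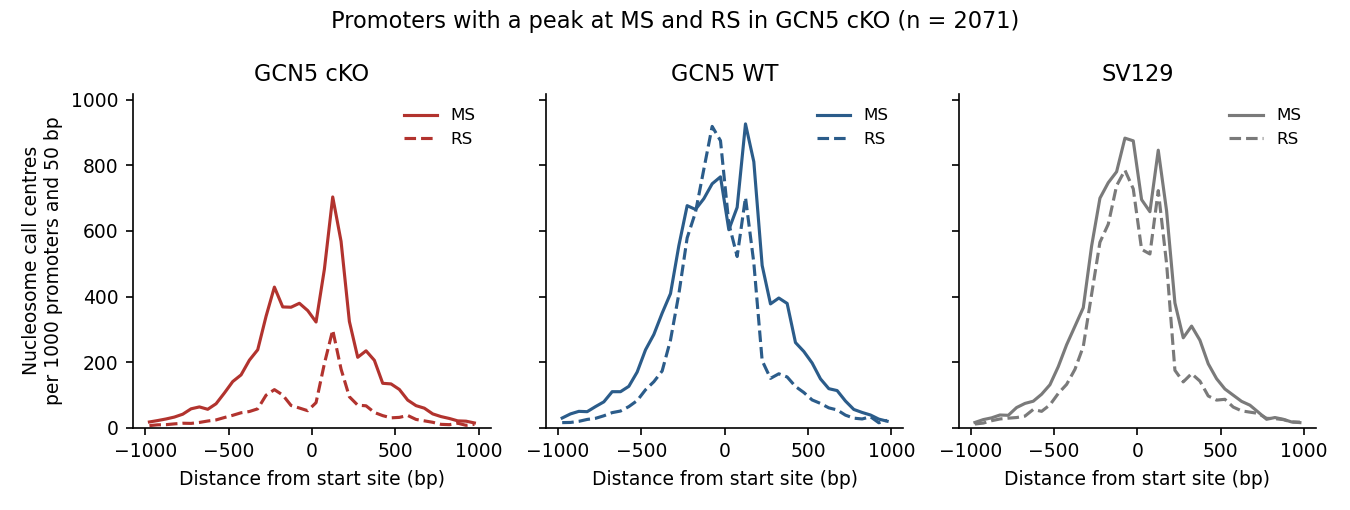
Nucleosome call centres per 1000 promoters and 50 bp bin (vertical axis) by distance from the start site in the direction of transcription (bp, horizontal axis), at MS (solid) and RS (dashed) in the 3 backgrounds, over the 2071 promoters with a subnucleosome peak at both stages of cKO. Each line is a single list; the cKO RS line lies far below the cKO MS line, while both lines of WT and SV129 stay high around the start.

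Promoters that closed in cKO lost calls to a like extent. Over the 4219 closed promoters centres went from 282 to 77.6 in cKO (0.276), from 531 to 396 in WT (0.746) and by a ratio of 0.568 in SV129. Relative to all calls these ratios were 0.414 in cKO and 0.482 in SV129, and without the most common score 0.693 and 0.554. Over the 141 opened promoters the ratio was 0.363 in cKO, 1.70 in WT and 1.80 in SV129. Further out, at 500 to 1000 bp from the start, the ratios over kept promoters were 0.347 in cKO, 0.495 in WT and 0.668 in SV129, so the flanks thinned in all 3 backgrounds. The part of read depth in these ratios was not tested.

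At the level of genes, 20661 autosomal protein-coding genes were classed by any overlap of an interval with the 500 bp on either side of either end. In cKO 7037 genes had a subnucleosome peak at MS and 2436 at RS. Of all genes 4725 closed (22.9%), 2312 were kept (11.2%) and 124 opened (0.6%), so 67.1% of the genes with an MS peak closed. Of genes free at MS, 0.91% opened. In WT 1098 genes closed (5.31% of all and 10.9% of those with an MS peak), 8961 were kept (43.4%) and 1021 opened (4.94%, or 9.63% of genes free at MS). SV129 had 1702 closed (8.24%, and 17.9% of those with an MS peak), 7803 kept (37.8%) and 827 opened (4% of all genes and 7.41% of genes free at MS). With 4038 peaks a list these counts were 1227, 1359 and 1077 in cKO and 1487, 1317 and 672 in WT. Genes with nucleosome calls followed a milder course: 5702 lost them in cKO (27.6%, and 52.5% of those with calls at MS), 5149 kept them (24.9%) and 1433 gained them (6.94%, or 14.6% of those free at MS). In WT the counts were 3213 (15.6%, and 26.5% of those with calls at MS), 8932 (43.2%) and 947 (4.58%, or 11.1% of those free at MS), and in SV129 2003 (9.69%, and 19% of those with calls at MS), 8556 (41.4%) and 1982 (9.59%, or 19.6% of those free at MS).

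Nearly all genes with a cKO MS peak were kept in WT, whether they closed or were kept in cKO. Of the 4725 genes that closed in cKO, 4432 were kept in WT (93.8%) and 255 closed there too. Of the 2312 kept genes, 2310 were kept in WT. Of the 124 opened genes, 108 were kept in WT and 16 opened, so most cKO openings were at genes that WT had open at both stages. Kept genes were also narrower at RS. In 91.0% of the 2312 kept genes fewer bases were covered by peaks at RS than at MS, and the median fell from 259 to 131.5 bp. In WT 57.8% of 8961 kept genes had fewer, and the medians were 372 and 348 bp.

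The genes closed in cKO with the widest MS coverage were kept in WT, as were 93.8% of all genes that closed in cKO. Covered lengths below are the bases of subnucleosome peak within the 500 bp on either side of the 2 ends. Sdf4 and B3galt6, whose ends adjoin and can share a peak, had 773 and 762 bp at cKO MS and 0 at RS, against 983 and 819 bp at WT RS and 749 and 585 bp at SV129 RS. Rab10, a small GTPase of membrane traffic, went from 765 to 0 bp in cKO and from 849 to 628 bp in WT. Rab11fip2, which binds the recycling GTPase Rab11, went from 743 to 0 bp in cKO and from 917 to 729 bp in WT. Kmt5c, a histone H4 lysine methyltransferase, went from 638 to 0 bp against 818 to 610 bp. Arl2, Katnal1, 9130023H24Rik and Myh9 had between 629 and 688 bp at cKO MS and 0 at RS, and between 424 and 821 bp at WT RS. All of these were chosen for their MS coverage in cKO.

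Genes kept in cKO with the widest RS coverage mostly had wide peaks at MS too. Hdgfl2 had 350 bp at cKO MS and 474 at RS, Ubxn6 451 and 474 bp, and Camta1, a transcription activator, 524 and 450 bp. Cdca2 and Kctd9 had the same 545 and 449 bp, and Pign and Relch the same 148 and 437 bp, so each pair may share 1 peak between neighbouring ends. Tle4, a Groucho corepressor, had 525 and 435 bp, Asf1b 531 and 427 bp, and Tomm40 460 and 422 bp. In WT these 10 genes had 513 bp or more at RS. Of the 10, Hdgfl2, Ubxn6, Pign and Relch were wider at RS than at MS.

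**Figure D4:**
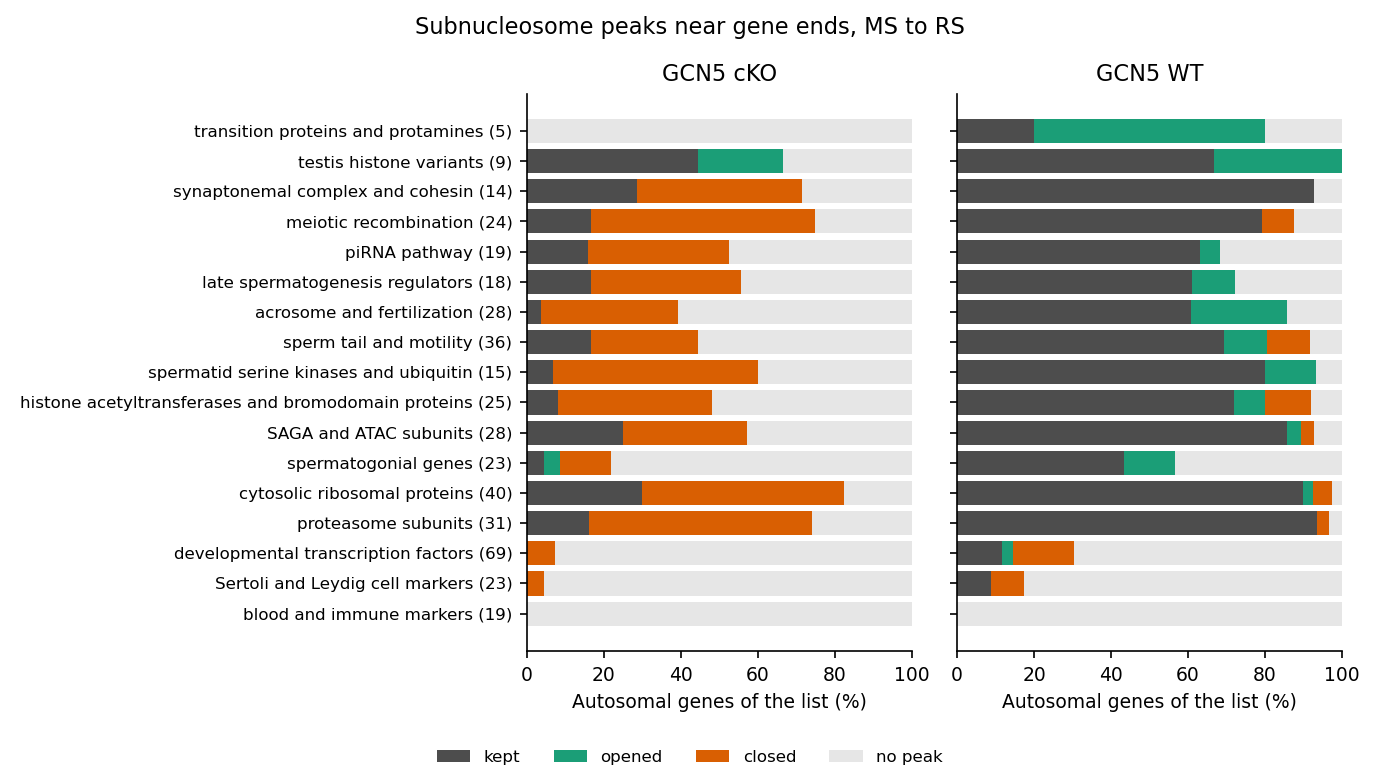
Share of the autosomal genes of each list (%, horizontal axis) that were kept, opened, closed or without a subnucleosome peak within 500 bp of an end from MS to RS, in cKO (left) and WT (right); the number of genes is in brackets. In cKO the transition protein and protamine genes have no peak at either stage and the testis histone variants are the list with both kept and opened members and none closed.

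None of the 5 transition protein and protamine genes, whose products replace histones in the spermatid, had a subnucleosome peak at either cKO stage, where 65.3% of all genes had none (46.4% in WT and 50% in SV129). In WT Tnp1 had 116 bp at MS and 438 at RS, and Prm1, Prm2 and Prm3 had 0 bp at MS and 187, 213 and 224 bp at RS. SV129 RS had 158, 183 and 183 bp at these 3 genes and 211 bp at Tnp1. Tnp2 had a peak in SV129 RS only, of 82 bp. The Prm1, Prm2, Prm3 and Tnp2 genes lie in 1 cluster and are not independent.

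Testis histone variants had peaks at cKO RS in 6 of 9 autosomal genes, against 11.8% of all genes, 4 kept and 2 opened, with none closed. In WT 6 were kept and 3 opened. The neighbours H2ac1 and H2bc1 each had 90 bp at cKO RS and may share a peak, so the 6 genes are not independent. H1f7, a linker histone of spermatids, had 0 bp at MS and 144 bp at RS in cKO, 0 and 258 bp in WT, and 0 and 216 bp in SV129. The 3 backgrounds thus opened the same promoter. H3f4 opened in cKO from 0 to 106 bp and in SV129 from 0 to 451 bp, and had 420 and 293 bp in WT. At Hils1, another spermatid linker histone, peaks covered 82 bp at MS and 123 bp at RS without Gcn5, against 131 and 307 bp in WT. At H2bl1 they covered 95 bp, then 148 bp, against 188 and 262 bp. Hils1 and H2bl1 were wider at RS than at MS, whereas 91.0% of kept cKO genes were narrower. H2ac1, a testis H2A, narrowed from 274 to 90 bp in cKO and from 347 to 227 bp in SV129, and widened from 385 to 622 bp in WT.

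Meiotic genes closed at about the background share of 67.1%. Of the synaptonemal complex and cohesin genes, which hold paired chromosomes together, 6 of the 10 with an MS peak closed and 4 were kept, and in WT 13 of 13 were kept. Syce1 went from 363 to 0 bp in cKO and from 390 to 528 bp in WT. Sycp1, the transverse filament protein, went from 341 to 0 bp against 591 to 578 bp. Hormad2, an axis protein, went from 334 to 0 bp against 559 to 358 bp. Sycp2 was kept at 547 and 212 bp, Rec8, the meiotic cohesin, at 221 and 138 bp, and Hormad1 at 151 and 80 bp. All 6 of these had peaks at both stages in SV129.

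Of meiotic recombination genes 14 of 18 closed and 4 were kept in cKO, against 2 and 19 of 21 in WT. For this list and the piRNA genes below, the shares of all genes with an MS peak that closed were 67.1% in cKO and 10.9% in WT. Mlh3, an endonuclease of crossover formation, went from 333 to 0 bp in cKO and from 387 to 0 bp in SV129, and was kept in WT at 405 and 263 bp. Msh5 was kept in cKO at 312 and 121 bp and Psmc3ip at 147 and 86 bp. Among piRNA pathway genes, which silence transposons, 7 of 10 closed in cKO and 0 of 12 in WT. Ddx4 closed from 346 bp, Mov10l1 from 246 bp and Mael from 242 bp, while Tdrkh, Tdrd9 and Rnf17 were kept with 192, 147 and 90 bp at RS.

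Regulators of the spermatid program were closed in 7 of 10 cases in cKO and in 0 of 11 in WT, near the shares of all genes with an MS peak (67.1% and 10.9%). Mybl1, the A-MYB factor of pachytene transcription, went from 469 to 0 bp in cKO and from 649 to 827 bp in WT. Paip2, a translation regulator, went from 387 to 0 bp against 526 to 623 bp. Crem, the spermatid activator of the cyclic AMP response, was kept but narrowed from 511 to 96 bp, against 733 to 554 bp in WT. Rfx2, a factor of cilium and spermatid genes, was kept at 187 and 117 bp, with 539 and 538 bp in WT. Cdc25c, a phosphatase of the cell cycle, was kept at 391 and 161 bp.

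Of 28 acrosome and fertilization genes, 10 of the 11 with an MS peak closed in cKO, beside 67.1% of all genes. None of the other 17 opened, where 0.91% of all genes free at MS did, so a count of 0 is near the background. In WT 17 of 17 were kept and 7 of 11 opened, against 9.63% of all genes free at MS, and in SV129 9 of 15 opened, against 7.41%. Izumo4 went from 352 to 0 bp in cKO against 555 to 559 bp in WT, and Gopc, a Golgi protein needed for the acrosome, from 263 to 0 bp against 568 to 471 bp. Acr, which encodes proacrosin, was the 1 kept member, at 191 and 78 bp. Of 36 sperm tail and motility genes, 10 of 16 closed and none opened in cKO, and 4 opened in WT. Dnaic1, an axonemal dynein chain, was kept at 443 and 224 bp, Spag6l at 214 and 148 bp, and Pgk2, the testis phosphoglycerate kinase, at 154 and 117 bp. Of the spermatid kinase and ubiquitin genes 8 of 9 closed in cKO and 0 of 12 in WT. Tssk6, a testis serine kinase, went from 203 to 0 bp in cKO and from 463 to 631 bp in WT, but at its start site alone the cKO change was 0 bp. Cul3, a ubiquitin ligase scaffold, went the other way, from 92 to 184 bp, and in WT from 435 to 780 bp.

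Genes of the acetylation machinery lay on either side of the background closing share of 67.1%. Of 12 histone acetyltransferase and bromodomain genes with an MS peak 10 closed in cKO (83.3%), against 3 of 21 in WT. Epc1, a subunit of the NuA4 acetyltransferase complex, went from 260 to 0 bp in cKO and Crebbp from 175 to 0 bp. Brpf1 was kept at 226 and 112 bp and Kat7 at 337 and 78 bp. Of SAGA and ATAC subunits, the complexes that hold GCN5, 9 of 16 closed (56.2%) and 7 were kept in cKO, against 1 of 25 closed in WT. Tada3 went from 332 to 0 bp in cKO and from 606 to 469 bp in WT, Supt3 from 291 to 0 bp and Mbip from 203 to 0 bp. Supt20, Tada2b and Usp22, the deubiquitinase of SAGA, were kept with 146, 140 and 130 bp at RS.

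Housekeeping lists closed at near the background share in cKO, and rarely in WT. Of cytosolic ribosomal protein genes 21 of 33 closed (63.6%) and 12 were kept, against 2 of 38 in WT. Rps9, Rplp2 and Rpl27 went from 405, 400 and 386 bp to 0, while Rps27 was kept at 201 and 205 bp and Rps18 at 191 and 170 bp. Of proteasome genes 18 of 23 closed (78.3%) in cKO and 1 of 30 in WT. Psma5 was kept and widened from 193 to 255 bp. Developmental transcription factor genes had few peaks in cKO. All 5 of 69 with an MS peak closed, beside 67.1% of all genes with an MS peak. In WT 11 of 19 and in SV129 10 of 11 closed, beside 10.9% and 17.9% of all such genes. Closing above the share of all genes was thus also found in both intact backgrounds. Sox17 closed in all 3 backgrounds, from 158 bp in cKO, 369 bp in WT and 373 bp in SV129. Hoxc13 and Isl1 closed in cKO and SV129 and narrowed in WT, to 253 and 204 bp.

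Nucleosome calls near gene ends were lost in 52.5% of all genes with calls at MS in cKO and 26.5% in WT, and the lists lay on both sides of the cKO share. Late spermatogenesis regulators lost them in 11 of 13 genes in cKO, against 1 of 12 in WT, and proteasome genes in 15 of 26 against 0 of 29. Lower cKO shares were found for meiotic recombination genes (7 of 18), SAGA and ATAC subunits (10 of 25), spermatid kinase and ubiquitin genes (4 of 10) and testis histone variants (1 of 4). Syce1 went from 785 to 0 bp of nucleosome calls in cKO and from 1177 to 340 bp in WT. Gopc went from 747 to 0 bp in cKO and from 827 to 670 bp in WT. Psma5, whose subnucleosome peak widened, lost its 600 bp of calls in cKO and had 509 and 467 bp in WT. Etv5, a spermatogonial factor, kept its subnucleosome peak at 525 and 158 bp and lost its 530 bp of calls. A few genes gained calls: Prm2 went from 0 to 340 bp in cKO with no subnucleosome peak, and Mlh3 from 0 to 324 bp as its peak closed. Developmental transcription factors gained calls in 10 of the 54 genes free of them at MS in cKO, such as Neurog1 from 0 to 341 bp, near the 14.6% of all such genes. They did so in 3 of 38 in WT (11.1% of all genes) and 10 of 49 in SV129 (19.6%).

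Of the 16 genes that opened in both cKO and WT, 13 opened in SV129 too and 3 (Klf17, Gm15319 and Strn4) were kept there. Besides H1f7 they held Slc39a8, Trim42, Shisal2b, 4930488N24Rik, 1700094D03Rik, Gm4922, Gm35257 and Gm5347, and Adam24 and Adam4, members of a family of sperm surface proteins. Adam24 had 0 and 154 bp in cKO, against 0 and 270 bp in WT, and Adam4 0 and 85 bp against 0 and 216 bp. Klf17 had 0 and 206 bp in cKO, 0 and 309 bp in WT, and 99 and 173 bp in SV129. Atp1a4, the sodium pump subunit of sperm, had 0 and 103 bp against 0 and 242 bp, and Dnah3, an axonemal dynein, 0 and 78 bp against 0 and 220 bp. Of the 16, nucleosome calls at RS were present near 2 in cKO (Atp1a4 and Shisal2b). In WT they were present near 14, all but Strn4 and Adam4. In SV129 they were absent near Klf17, H1f7, Gm5347, Adam4 and Dnah3. Of all 20661 genes, 6582 had calls at cKO RS, 9879 at WT RS and 10538 at SV129 RS. These 16 were named after their values were seen.

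The opened cKO genes with the widest RS coverage were mostly open in WT throughout. Ilrun, Senp3, Tmem250-ps and 1700037H04Rik had from 208 to 239 bp at cKO RS and 0 at MS, and from 318 to 590 bp at WT MS. At the start site alone the cKO change of Tmem250-ps was -82 bp, in the other direction. Catsperd, an ion channel subunit of the sperm tail, had 0 and 175 bp in cKO, against 326 and 606 bp in WT. Conversely, genes with the widest opening in WT and no cKO peak were Ubap2l (680 bp at WT RS), Mylpf (632 bp), Myo1d (595 bp), Lamc1 (573 bp) and Tlk1 (571 bp), all with 0 bp at WT MS. Of these 5, SV129 RS had a peak at 4 and none at Tlk1, a chromatin assembly kinase.

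Promoters kept in cKO held CCAAT more often than other promoters. CCAAT, on either strand and with overlaps allowed, was in 38.1% of all 20084 windows, in 59.1% of the 2071 kept in cKO (57.0% to 61.2%), in 41.6% of the 4219 closed, in 33.3% of the 141 opened and in 33.9% of those without a peak. Of cKO promoters with an MS peak, 25.6% were kept with 0 copies (24.1% to 27.1%), 32.5% with 1, 44.6% with 2 and 60.4% with 3 or more (56.3% to 64.4%, 334 of 553). In WT the shares were 88.4%, 89.8%, 94.3% and 96.9%, and in SV129 80.1%, 83.1%, 89.3% and 94.1%. The order was the same in the 3 backgrounds. Windows of 1 gene or of neighbouring genes can overlap, so they are not independent.

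Within peaks of like score the cKO difference was seen in the upper 3 of 4 groups. Among the highest of the 4 groups of cKO promoters by MS score, 61.9% with 1 copy or more were kept (58.8% to 64.9%) and 43.4% with 0 copies (39.5% to 47.5%). In the next groups down the shares were 43.4% (40.0% to 46.9%) and 34.3% (31.0% to 37.7%), then 26.4% (23.2% to 29.9%) and 19.96% (17.5% to 22.7%). In the lowest group they were 17.7% and 13.8%, whose intervals overlap. In WT the intervals overlapped in all 4 groups, at shares from 71.3% to 99.5%. With 4038 peaks a list, cKO promoters with 0, 1, 2 and 3 or more copies were kept at 41.9%, 47.4%, 59.5% and 69.1%, and WT ones at 40.6%, 49.6%, 59.2% and 49.3%. The 2 backgrounds were thus within each other's intervals up to 2 copies and apart at 3 or more, where the intervals were 64.2% to 73.6% in cKO and 44.1% to 54.5% in WT.

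**Figure D5:**
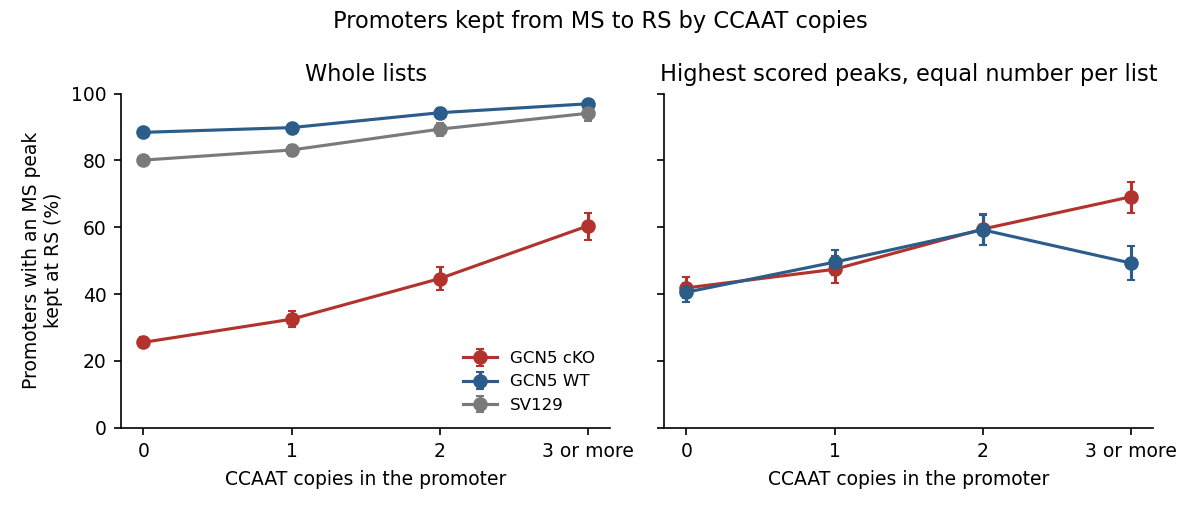
Share of promoters with an MS subnucleosome peak that were kept at RS (%, vertical axis) by the number of CCAAT copies in the 300 bp window (horizontal axis), in whole lists on the left and with the 4038 highest scored peaks of each cKO and WT list on the right. Points are single lists with Wilson 95% intervals; in whole lists cKO rises from 25.6% to 60.4%, and at equal number cKO reaches 69.1% and WT 49.3% at 3 or more copies.

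Other motifs, each searched on both strands, differed by fewer percentage points between kept and closed cKO promoters, or the other way. Percentage points depend on how common a motif is, so they do not rank the motifs. Relative to the closed share, the rare YY1 and NRF1 motifs differed by more than CCAAT, at 59.1% and 41.6%, with NRF1 in the other direction. GGGCGG, the GC box, was in 47.0% of all windows, 75.5% of kept and 66.8% of closed ones. The palindromic cyclic AMP response element was in 2.30%, 4.88% and 4.48%. The palindromic NRF1 motif was in 1.34% of all windows, and in 1.84% of kept (1.34% to 2.51%) and 3.32% of closed promoters (2.82% to 3.90%). The YY1 motif was in 0.896% of all windows, 2.80% of kept and 1.87% of closed ones, whose intervals overlap, and TATAAA in 12.7%, 4.15% and 5.21%. The median number of CpG was 24 in kept, 23 in closed and 14 in all windows, so the medians of kept and closed promoters lay close together. The kept share still differed with CpG number. In 4 groups of cKO promoters with an MS peak, from few to many CpG, 23.8%, 35.7%, 38.9% and 33.3% were kept. In WT the shares were 84.7%, 92.3%, 93.5% and 89.1%. The shares by CCAAT copies were not adjusted for CpG number.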

How the data were processed

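The members, gene lists and comparisons were chosen with earlier results of these data known. The positions in the lists are those the authors deposited, and the score of each interval is the authors' own, on a scale that no header or label states. Tools listed per the submitters' processing notes are MACS2 2.1.0.20140616 and STAR 2.5.2a, with no role stated, and the build is GRCm38 (mm10). Depth is unknown, so precision is given as Wilson 95% intervals of shares, which cover counting error only. With 1 list per group no test was made. Overlap was counted from 1 bp on, on the autosomes, with Python 3.11.15, numpy 2.4.6 and pandas 2.3.3, and the interval functions were tested on simulated data. Gene positions and promoter sequences came from RefSeq (GRCm38.p6). Named genes were all transition protein and protamine genes. In each other list they were up to 3 closed, 3 kept and 4 opened members by covered bases in cKO. Over all genes they were the 10 opened, 10 closed, 10 kept and 10 opened in WT only with most covered bases, and Kat2a. Alternatives changed the overlap, the scores used, the number of peaks per list, the chromosomes and the window at gene ends (250 or 1000 bp, or start sites). Equal numbers of peaks per list for genes and promoters, and start site ratios without the most common score or by chromosome, were chosen after seeing the data. Some genes that the naming rule selects are not reported here.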

Additional observations from a re-analysis of the deposited data

Results flagged for a closer look

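The number of subnucleosome peaks moved in opposite directions from MS to RS, falling to a ratio of 0.259 in cKO and rising to 1.61 in WT. The ratio of nucleosome call centres at promoters kept in cKO did so too, at 0.252 in cKO and 1.05 in WT. In SV129, the other intact background, both numbers fell as well, to ratios of 0.905 and 0.832. Each value comes from a single list, and neither difference between backgrounds was tested. On the X chromosome, which the autosomal comparison leaves out, the number of nucleosome calls went from 6092 at MS to 1093 at RS in cKO. In WT it went from 9174 to 517. Of these RS calls, 88.8% in cKO and 40.4% in WT had no MS call. X-linked subnucleosome peaks went from 406 to 14 in cKO, where 96.8% of MS peaks closed and none opened. They went from 909 to 336 in WT (68.4% closed) and from 944 to 227 in SV129 (80.9% closed).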

How the results depend on the processing

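No paired analysis was possible because the lists are per group and hold no values per library, and no replicate could be left out for the same reason. At equal number per list 59.8% of MS peaks closed in cKO and 59.0% in WT, and 59.2% and 59.0% of RS peaks opened. The shares were alike under this cut, which held the whole cKO RS list and only the highest scored peaks of WT RS. The counts of genes kept and opened were then 1359 and 1077 in cKO and 1317 and 672 in WT, and 1227 genes closed in cKO. With the upper part of each list by score (50%), 83.8% closed and 36.7% opened in cKO, and 29.8% closed in WT. The closed shares of the backgrounds stayed apart, but that cut kept the proportion of RS to MS peaks in each background. It therefore could not separate these shares from list length. Where at least 50% of a peak had to be covered, 87.9% closed and 27.3% opened in cKO, and 35.3% and 60.0% in WT. With all chromosomes 32.3% of WT peaks closed. Nucleosome calls without a partner under 75 bp of overlap were 92.4% of MS and 90.0% of RS calls in cKO, and 73.2% and 69.8% in WT. Without calls at the most common score they were 90.9% and 80.0% in cKO and 62.2% and 63.5% in WT. With all chromosomes 87.5% of RS calls were new in cKO and 69.6% of MS calls were lost in WT. Start sites alone gave 911 genes with gained nucleosome calls in cKO. Windows of 250 and 1000 bp kept every gene count within 1.5 times its value. Among 341 alternatives for 122 closed or opened genes, 14 gave 0 bp, among them the peaks of Tssk6 and Dhh at start sites, and 3 turned the direction: Tmem250-ps to -82 bp at start sites, and Neurog3 and Nkx2-5 to 170 and -163 bp of nucleosome calls with 1000 bp.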
